A study of Caenorhabditis elegans with 22 samples.

Results

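Rotenone and 2-deoxyglucose were compared at 10 days of age through the microRNAs (miRNAs) of whole Caenorhabditis elegans. The comparison set 3 small RNA libraries labelled rotenone against 3 labelled 2-deoxyglucose, out of 22 libraries in the series. All hairpins with at least 10 counts in at least 3 of these 6 libraries were taken, which gave 124 of the 250 hairpins in the table. The worms were N2 hermaphrodites, the wild-type laboratory strain, in every group. The rotenone worms received 0.039441 µg/ml, while a dose for 2-deoxyglucose is not in the labels used here. The same pair of perturbations was sampled at days 1, 5 and 20, which were used for the spread between libraries and to ask whether a day 10 difference was also seen at other ages. DMSO, a solvent, stands in the series title in the place that 2-deoxyglucose takes in every sample label, and the sample labels were followed. By those labels the comparison holds no untreated worms, and no difference can then be assigned to either compound. Whether the second group was instead a solvent group, as the title has it, cannot be told from the labels. Whether replicate libraries are separate cultures is not stated, and p-values therefore measure a spread between libraries that may be technical.

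Rotenone blocks mitochondrial complex I, and 2-deoxyglucose is a glucose analogue that slows glycolysis. A miRNA is cut from a hairpin precursor, loaded into an Argonaute protein and guided to messenger RNAs through its seed, the short stretch near its 5′ end. Hairpins with the same seed form a family and can share targets. In C. elegans the let-7 and lin-4 families time larval development, the mir-35 family is abundant in eggs and embryos, and several miRNAs, including lin-4, mir-71, mir-34 and mir-239, are known to affect lifespan or stress resistance in adults.

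The 3 rotenone libraries held 976553, 1059748 and 1119399 counts, and the 3 of 2-deoxyglucose held 1150838, 940056 and 1738413. Of the 250 hairpins, 39 had no count in these libraries and 87 had counts but missed the minimum. The 124 members held at least 99.98% of the counts of every library, and 113 of them reached 10 counts in all 6. No member passed through the libraries of 1 group alone with none in the other. At the edge of the rule, mir-4816 passed with 3 libraries at the minimum (3 to 11 counts), and the neuronal mir-124 missed it with 2 (7 to 14 counts). Libraries of a group differed beyond counting noise in each of the 6 pairs, with a chi-square per degree of freedom between 25.1 and 161. The rotenone libraries came from sequencing lanes 1, 2 and 3 and those of 2-deoxyglucose from lanes 4, 5 and 6, so lane and compound cannot be told apart within day 10. Fits with lane as a factor take the difference between these lane sets from other ages and assume it holds at day 10. Calls kept or lost in such fits therefore do not settle whether lane plays a part.

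At day 10 the miRNA profiles of the compounds were close. Rotenone libraries held more mir-70, mir-86 and mir-241, and less mir-34, mir-36, mir-39 and mir-254. These 7 of 124 hairpins (5.65%) passed edgeR's quasi-likelihood test at a Benjamini-Hochberg adjusted p of 0.05, with 3 higher (2.42%) and 4 lower (3.23%) in rotenone, and their folds ran from 1.31 to 1.56. All log2 differences below are rotenone minus 2-deoxyglucose with the standard error (SE), and levels are CPM, counts divided by TMM-adjusted library sizes. The median difference of all members was -0.02, 70 members lay within 0.25 of 0, and none exceeded 1. In 42 members (33.9%) the groups did not overlap, with 17 above and 25 below in rotenone. At an unadjusted p of 0.05, 30 members (24.2%) passed, 11 higher and 19 lower. The median SE was 0.15 for the 89 members over 100 CPM and 0.31 for the 35 below, so differences of scarce hairpins were measured less precisely.

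The 7 hairpins kept their sign with each of the 4 scalings, but which hairpins passed depended on the scaling. With the size factors of DESeq2 (RLE) 9 hairpins passed, 3 higher and 6 lower, and with total counts 9 passed, 6 higher and 3 lower. Omitting single libraries left 2 calls without rotenone library 1, 2 without rotenone library 2 and 1 without 2-deoxyglucose library 1.

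**Figure D1:**
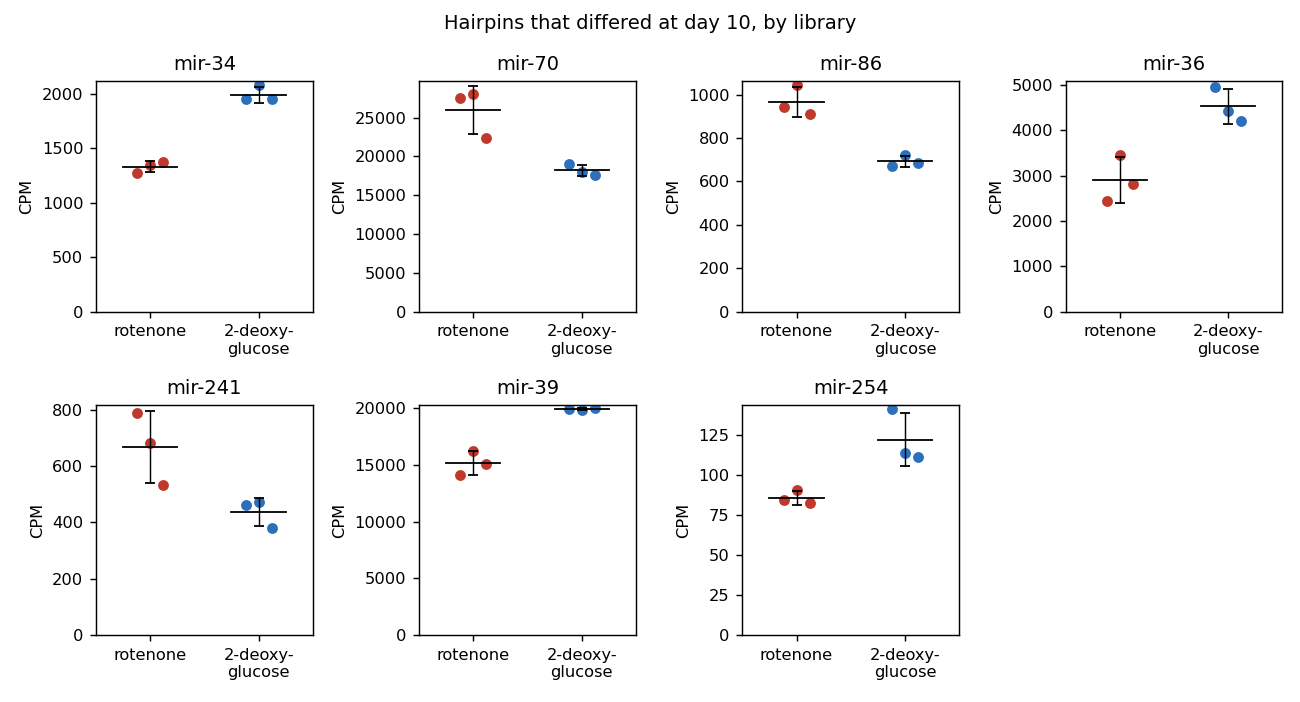
CPM (y axis, from 0, a scale of its own per panel) of the 7 hairpins that passed the test, with a point per library, a line at the mean and a bar of ±1 SD (n = 3 per group). The groups do not overlap in any panel. Rotenone is lower for mir-34, mir-36, mir-39 and mir-254 and higher for mir-70, mir-86 and mir-241.

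The smallest p belonged to mir-34, the worm relative of the p53-responsive miR-34 of mammals and a hairpin known to rise in ageing adults. It lies on the minus strand of chromosome X (X:2969752-2969848, WBcel235) outside any annotated protein-coding gene. Its level was 1274, 1349 and 1373 CPM in the rotenone libraries and 1953, 2079 and 1951 CPM in those of 2-deoxyglucose. All 3 rotenone values lay well below the lowest 2-deoxyglucose value, and the gap was several times the spread within either group. The means were 1332 ± 51.5 and 1994 ± 73.4 CPM (SD, n = 3 each), a log2 difference of -0.58 ± 0.12 (95% interval -0.83 to -0.34, adjusted p = 0.0101, edgeR). It was the only hairpin that passed without each of the 6 libraries in turn. It did not pass with lane as a factor (log2 -0.33, adjusted p = 0.124), nor with no filter on low counts (adjusted p = 0.0517).

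Over both compounds mir-34 rose with age (day 20 minus day 1, log2 2.75, adjusted p = 1.88e-16, edgeR). The mean was 511 ± 33.3 CPM at day 1, 761 ± 101 at day 5 and 3484 ± 467 at day 20 in rotenone (n = 3, 3 and 2). In 2-deoxyglucose it was 484 ± 43.6, 806 ± 101 and 3232 ± 6.66 CPM at the same ages. The differences between compounds at those ages were 0.08, -0.08 and 0.11, and none passed the test. The day 10 difference differed from that of each other age (edgeR, adjusted p = 0.00878 against day 1, 0.041 against day 5 and 0.0287 against day 20). These contrasts contain the day 10 difference by which mir-34 was picked.

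Other hairpins with known effects on lifespan did not pass at day 10. Of the 9 lifespan-linked hairpins, mir-34 was the 1 that passed (5.65% of all members did), 5 were positive and 4 negative (7 and 2 with total counts), and their median was 0.05 against -0.02 for all members. Levels of mir-71, a miRNA needed for normal lifespan, were 6667, 7044 and 7139 CPM in rotenone and 5878, 5855 and 5860 CPM in 2-deoxyglucose. Its groups did not overlap, and its difference of 0.25 ± 0.09 had an adjusted p of 0.0962. It passed as higher in 1 of 19 alternatives, the DESeq2 Wald test (adjusted p = 0.0487). For mir-246, whose early adult level is known to track lifespan, rotenone held 9072, 9457 and 9289 CPM and 2-deoxyglucose 10558, 10221 and 10827 CPM. These groups did not overlap either, at -0.18 ± 0.10 (adjusted p = 0.228). The glial mir-228 measured 0.22 ± 0.16, and mir-238, mir-239a and mir-239b, relatives whose loss alters lifespan, measured -0.06 ± 0.12, 0.05 ± 0.13 and -0.03 ± 0.20. Of these 3, the sign of mir-238 and mir-239b turned with total counts as the scaling. The overlapping list of 15 stress-linked hairpins also held mir-34 as its 1 call (5.65% of all members passed). It had 10 positive, 5 negative and a median of 0.09, beside 59 positive and 65 negative among all members. With total counts 3 of the 15 passed as higher and 1 as lower (12 positive, 3 negative, median 0.16), and with RLE 2 passed as lower. The calls over all members with these scalings are given above, and with total counts the median of all members was itself 0.06.

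The mir-35 family acts in the germ line and early embryo, where its loss is lethal. Its 8 members lie in the mir-35 to mir-41 cluster on chromosome II and in the mir-42 cluster, and all 8 were members here. All 8 differences were negative with each of the 4 scalings, from -0.64 to -0.14 with the main scaling, with a median of -0.40. Of the 8, 2 passed as lower, beside 3.23% of all members, and 6 did not pass. When TMM left this family and the top 5 hairpins by level out of its scaling factors, 1 passed. Groups did not overlap for 5 of the 8, beside 33.9% of all members.

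Within the family, mir-36 (II:11537713-11537809, plus strand) held 2437, 3447 and 2808 CPM in rotenone and 4956, 4422 and 4214 CPM in 2-deoxyglucose. Every rotenone value was below every 2-deoxyglucose value, with means of 2897 ± 511 and 4531 ± 383 CPM (SD, n = 3 each). The difference was -0.64 ± 0.15 (adjusted p = 0.0133, edgeR). It did not pass without rotenone library 1 or without 2-deoxyglucose library 1. The neighbouring mir-39 (II:11538089-11538175, plus strand) held 14061, 16200 and 15091 CPM in rotenone and 19847, 19801 and 19965 CPM in 2-deoxyglucose. The 2-deoxyglucose libraries were almost level for mir-39, and all lay above the rotenone libraries. Its difference was -0.39 ± 0.10 (adjusted p = 0.0243, edgeR), and it did not pass in any of the 6 omissions of a library or with lane as a factor (adjusted p = 0.429). In all, 11 of 18 alternatives ended the call, among them the reduced TMM scaling just described (adjusted p = 0.0647), no filter on low counts, filterByExpr and the fit without mir-45.

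Other members had negative differences that did not pass. For mir-35 the libraries held 59519.9, 74020 and 83155 CPM in rotenone and 89647, 95524 and 110113 CPM in 2-deoxyglucose, without overlap (-0.45 ± 0.17, adjusted p = 0.0992). For mir-37 and mir-38 the differences were -0.41 ± 0.19 and -0.42 ± 0.17, again without overlap. The most abundant of the family, mir-40, overlapped between groups (-0.21 ± 0.17), and its sign turned with lane as a factor (0.06). Groups also overlapped for mir-41 and mir-42. Ratios of pairs picked from the cluster overlapped between compounds. The two-sided exact permutation p was 0.5 for mir-36 over mir-35, 0.2 for mir-36 over mir-40 and 0.3 for mir-39 over mir-40. With 3 against 3 libraries the smallest possible p is 0.1, so overlap does not show that the members moved together.

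The family's summed level was 180697, 228711 and 244484 CPM in rotenone and 255756, 258494 and 308222 CPM in 2-deoxyglucose. As a share of all counts it was 18.4%, 21.9% and 23.0% against 24.0%, 23.9% and 27.9%. In whole worms, fewer eggs or germ cells and less RNA per cell cannot be told apart. With the 8 hairpins removed from the table, 7 of the remaining hairpins passed, 3 higher and 4 lower, and these included all 5 of the other calls.

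**Figure D2:**
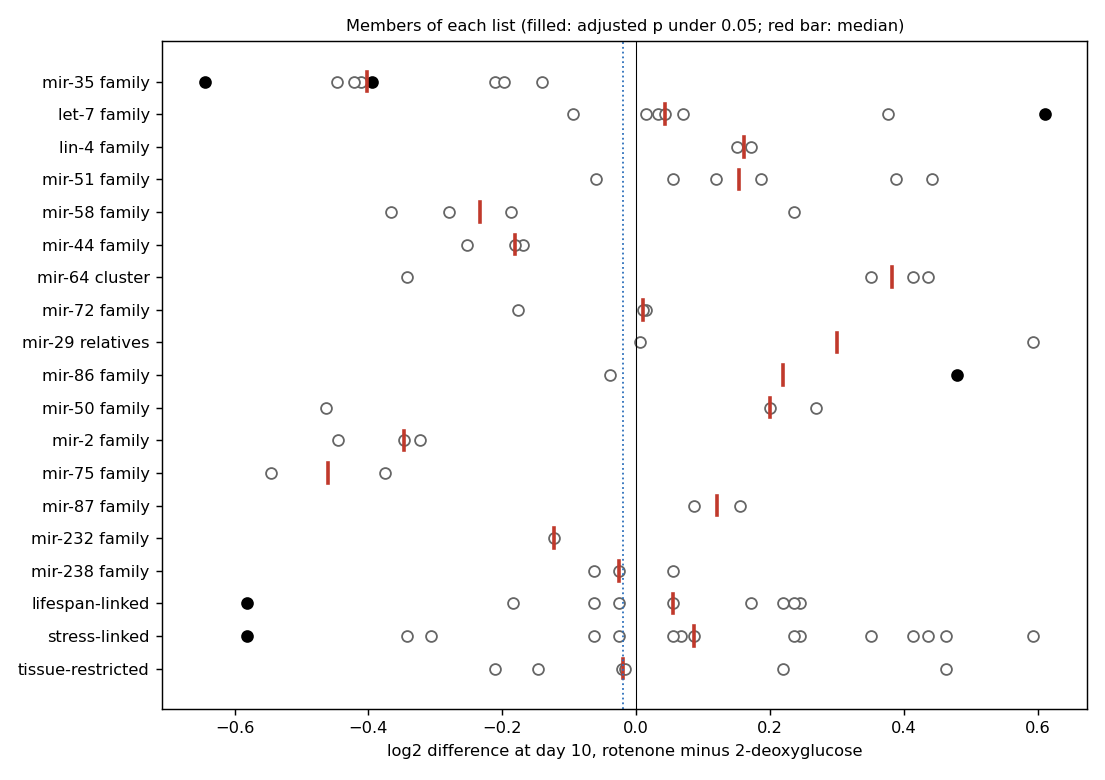
Log2 difference at day 10 (x axis, rotenone minus 2-deoxyglucose) for each hairpin in the family and role lists (rows). Filled points passed the test, white points did not, red bars are the medians of the lists, and the dotted line is the median of all members, -0.02. All 8 points of the mir-35 family lie left of 0.

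The mir-2 family had 3 members, mir-2, mir-43 and mir-250, out of 4 listed, and all 3 had negative differences without overlap (33.9% of all members) and without passing (median -0.35). Its mir-250, which lies 44 bases from mir-61 on chromosome V, held 358, 513 and 492 CPM in rotenone and 657, 644 and 556 CPM in 2-deoxyglucose (-0.44 ± 0.15, adjusted p = 0.0894). It passed in 3 of 19 alternatives, which were RLE scaling (adjusted p = 0.0487), DESeq2 and the fit without the day 20 libraries. The mir-44 family, expressed in sperm and germ line, had a median of -0.18 over 3 members, with 0 calls. Counts of mir-44 were 100.03% to 103% of those of mir-45 in every day 10 library. These hairpins are near-identical and may share reads, so they are a single uncertain measurement.

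Among heterochronic miRNAs, rotenone libraries held more mir-241. With mir-48 and mir-84 it forms the let-7 sisters that time the transition between larval stages. The hairpin lies on the minus strand of chromosome V (V:14366188-14366283), 1678 bases from mir-48. It held 788, 683 and 532 CPM in rotenone and 461, 471 and 381 CPM in 2-deoxyglucose. The rotenone libraries spread widely but stayed above the others, with means of 668 ± 129 and 438 ± 49.6 CPM (SD, n = 3 each). The difference was 0.61 ± 0.16 (adjusted p = 0.0208, edgeR). The call was lost with lane as a factor, without the day 20 libraries, and without rotenone library 1, rotenone library 2, 2-deoxyglucose library 1 or 2-deoxyglucose library 3.

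For its neighbour mir-48 the groups overlapped, with 19203, 19545 and 19549 CPM in rotenone and 21199, 22434 and 18640.1 CPM in 2-deoxyglucose (-0.10 ± 0.09). The level of mir-241 as a percentage of mir-48, which does not depend on the scaling, was 4.10, 3.49 and 2.72 in rotenone and 2.17, 2.10 and 2.04 in 2-deoxyglucose. This pair was chosen after the values were seen. The groups did not overlap, at the smallest p that a two-sided exact permutation test of 3 against 3 allows (0.1). At day 1 the mean percentage was lower in rotenone (6.72 against 9.22). It was higher at day 5 (3.84 against 3.38) and day 20 (1.29 against 0.861). The other sister, mir-84, overlapped (0.38 ± 0.15, adjusted p = 0.117).

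For let-7 itself the libraries held 853, 851 and 826 CPM in rotenone and 820.1, 804 and 785 CPM in 2-deoxyglucose. The values did not overlap but lay close together, and the difference was 0.07 ± 0.12 (95% interval -0.17 to 0.31). Over the let-7 family, 1 of 7 members passed as higher, beside 2.42% of all members, 6 were positive and the median was 0.04. The lin-4 family had 0 calls, with lin-4 at 0.17 ± 0.16 and mir-237 at 0.15 ± 0.13. For lin-4 the value was 8.7e-04 without rotenone library 3 and 0.33 without rotenone library 1.

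The most abundant hairpin to pass was mir-70, ninth of the 124 by level. It lies in an intron of pmp-5 on the same strand (V:6665536-6665635, minus). It held 27510.2, 28106 and 22431 CPM in rotenone and 18984, 18046 and 17611 CPM in 2-deoxyglucose. Rotenone library 3 was the lowest of its group and still above every 2-deoxyglucose library. The means were 26016 ± 3119 and 18213 ± 702 CPM (SD, n = 3 each), a difference of 0.51 ± 0.12 (adjusted p = 0.0125, edgeR). The call was lost with lane as a factor, without the day 20 libraries, and without rotenone library 1, rotenone library 2 or 2-deoxyglucose library 1.

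A hairpin in an intron of Y56A3A.7, mir-86 (III:11936637-11936734, minus), held 943, 1044 and 909 CPM in rotenone and 672, 721 and 685 CPM in 2-deoxyglucose. Every rotenone value was above every 2-deoxyglucose value (965 ± 70.0 against 693 ± 25.8 CPM, SD, n = 3 each). The difference was 0.48 ± 0.11 (adjusted p = 0.0125, edgeR), and the call held with lane as a factor but not without rotenone library 2 or 2-deoxyglucose library 1. Its family relative mir-785 overlapped between groups (-0.04 ± 0.16). Set against mir-785 in the same library, mir-86 was at 413%, 447% and 376% in rotenone and 286%, 278% and 297% in 2-deoxyglucose. This pair was chosen after the values were seen. Libraries of day 5 ranged from 327% to 461% in rotenone and from 215% to 382% in 2-deoxyglucose, a spread as wide as the day 10 difference.

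The scarcest call was mir-254, in an intron of gcy-9 on chromosome X (X:11333531-11333630, minus). It held 84.4, 90.7 and 82.5 CPM in rotenone and 141, 114 and 111 CPM in 2-deoxyglucose. 2-deoxyglucose library 1 stood above the other two of its group, and the groups did not overlap. The difference was -0.51 ± 0.14 (adjusted p = 0.0284, edgeR), and the call was lost in 11 of 19 alternatives.

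**Figure D3:**
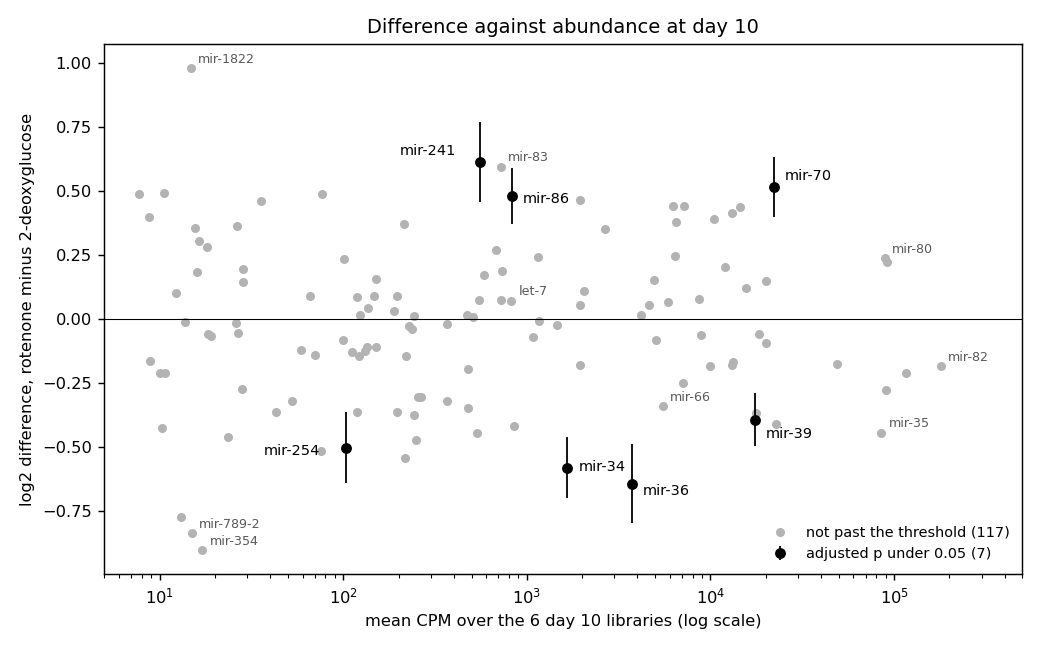
Log2 difference at day 10 (y axis, rotenone minus 2-deoxyglucose) against the mean CPM of the 6 libraries (x axis, log scale), with a point per hairpin (n = 124). The 7 black points, with bars of ±1 SE, passed the test, and none of the 124 lies beyond 1 in either direction. Scarce hairpins on the left spread more widely than abundant ones.

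The mir-64 cluster lies in an intron of gcn-1 on chromosome III, and its mir-64, mir-65, mir-66 and mir-229 are known from stress and heat responses. Rotenone libraries held 18076, 16683 and 14969.6 CPM of mir-65, and 2-deoxyglucose libraries 12098, 12923 and 11724 CPM. For mir-64 the values were 16119.96, 15102 and 13510.3 against 11073, 11364 and 11160.2 CPM. Neither hairpin overlapped between groups, and neither passed (0.44 ± 0.16, adjusted p = 0.0921, and 0.41 ± 0.15, adjusted p = 0.0928). Each passed as higher in 6 of 19 alternatives, among them total counts (adjusted p = 0.0348 for both) and lane as a factor (log2 0.88 and 0.81). Since mir-64 and mir-65 are near-identical, their reads may be shared. The last hairpin of the cluster, mir-66, had a negative difference, with 4685, 5178 and 4732 CPM in rotenone and 6506, 6850.05 and 5149 CPM in 2-deoxyglucose (-0.34 ± 0.10, adjusted p = 0.0567). Its groups overlapped, and it passed as lower in 5 of 19 alternatives, among them RLE scaling (adjusted p = 0.032).

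Only 6 bases separate mir-65 from mir-66 in the annotation. As a percentage of mir-65 in the same library, a pair chosen after the values were seen, mir-66 was at 25.9, 31.0 and 31.6 in rotenone and at 53.8, 53.0 and 43.9 in 2-deoxyglucose. The means were 29.5 ± 3.13% and 50.2 ± 5.48% without overlap (SD, n = 3 each; two-sided exact permutation p = 0.1, the smallest possible). At the other ages the group means of this ratio were close, with 22.9% in rotenone and 22.2% in 2-deoxyglucose at day 1, 36.2% and 33.7% at day 5, and 46.6% and 45.6% at day 20. Libraries of day 5 ranged from 25.7% to 44.1% in rotenone and from 27.3% to 45.5% in 2-deoxyglucose, a spread close to the day 10 difference. The ratio of mir-65 to mir-64 did not separate the groups (110% to 112% against 105% to 114%, exact p = 0.7). Shared reads could hold this ratio level in any case, so it says nothing about the cluster.

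The mir-58 family, relatives of the fly growth regulator bantam, supplied the most abundant hairpin of every day 10 library, mir-82. The libraries held 155758, 168779.9 and 178386 CPM of it in rotenone and 184284, 192038 and 196120.4 CPM in 2-deoxyglucose. All rotenone values were lower, and the difference of -0.19 ± 0.11 did not pass (adjusted p = 0.278). Its relatives mir-81 and mir-58a measured -0.37 ± 0.13 (adjusted p = 0.0894) and -0.28 ± 0.15. In the opposite direction, mir-80, whose loss gives a state like dietary restriction, held 97925, 97952 and 92189.9 CPM in rotenone and 83602, 77849 and 83082 CPM in 2-deoxyglucose (0.24 ± 0.11, adjusted p = 0.202). As a percentage of mir-82, mir-80 was at 62.9, 58.0 and 51.7 in rotenone and 45.4, 40.5 and 42.4 in 2-deoxyglucose, without overlap. This pair was chosen after the values were seen. At days 1, 5 and 20 its rotenone mean was the lower one, with 46.0 against 57.9, 59.6 against 66.7 and 37.9 against 39.2. The day 10 ratios of mir-81 and mir-58a to mir-82 overlapped between groups (two-sided exact permutation p = 0.2 and 0.5). None of the 4 family members that reached the minimum passed, and their median was -0.23.

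Hairpins restricted to differentiated tissues were detected in whole worms as labelled, and 0 of the 6 measured passed. With 5.65% of all members called, this does not set them apart. The muscle mir-1 measured -0.02 ± 0.20, with a sign that turned with total counts. The intestinal mir-60, known from the response to oxidative stress, held 2384, 2545 and 1812 CPM in rotenone and 1991, 1503 and 1397 CPM in 2-deoxyglucose. Its groups overlapped, and its interval was wide (0.46 ± 0.33, 95% interval -0.22 to 1.14). That interval uses a spread estimated over all ages, and mir-60 varied more at day 5 than at day 10. Its SD at day 5 was 1176 (rotenone) and 1375 CPM (2-deoxyglucose), beside 385 and 317 CPM at day 10. In 1 of 19 alternatives, the edgeR fit without the day 5 libraries, mir-60 passed as higher (adjusted p = 0.0114). Of the neuronal hairpins, lsy-6 measured -0.21 ± 0.36 at 4.74 to 15.2 CPM, mir-790 measured -0.15 and mir-791 measured -0.02.

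Other hairpins near the threshold were mostly of low or middle level. The difference of largest size was that of mir-1822, with 29.1, 20.7 and 9.48 CPM in rotenone and 11.1, 8.07 and 10.2 CPM in 2-deoxyglucose. Rotenone library 3 lay inside the 2-deoxyglucose range (0.98 ± 0.32, adjusted p = 0.0817). Without rotenone library 1 the difference was 0.59, smaller in size than that of mir-789-2 with the same library left out (-0.73). For mir-789-2 rotenone held 9.05, 10.8 and 12.3 CPM and 2-deoxyglucose 20.4, 18.4 and 19.0 CPM, without overlap (-0.84 ± 0.26, adjusted p = 0.0643). Its reads may be shared with mir-789-1, whose difference had the opposite sign and did not pass (0.28, adjusted p = 0.634, edgeR). The difference of mir-789-2 is therefore uncertain. For mir-83, a relative of miR-29 that stabilises cell migration in the gonad, the values were 871, 887 and 852 CPM against 625, 535 and 569 CPM (0.59 ± 0.21, adjusted p = 0.0894). Its groups did not overlap, and it passed under 6 of 19 alternatives. The differences of mir-75, mir-231, mir-359 and mir-59 were -0.55 ± 0.20, -0.52 ± 0.19, -0.36 ± 0.14 and -0.32 ± 0.11, with adjusted p from 0.0894 to 0.0932.

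Among the remaining abundant hairpins, mir-72 and mir-57 measured -0.18 ± 0.16 and 0.15 ± 0.16. The mir-51 family, required in embryos, had 5 positive and 1 negative difference with a median of 0.15 and 0 calls, and the mir-50 family a median of 0.20 over 3 members and 0 calls. The mir-72, mir-238, mir-87 and mir-232 families had medians between -0.12 and 0.12 and 0 calls. The mir-75 family had 2 negative differences, a median of -0.46 and 0 calls. The miR-29 relatives mir-49 and mir-83 had a median of 0.30 and 0 calls. With 5.65% of all members called, 0 calls in lists this small do not set them apart.

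The day 10 differences were then set against those of the other ages, in a contrast of the day 10 difference minus the mean difference at days 1, 5 and 20. This contrast passed for 22 of 124 hairpins (17.7%), 5 higher (4.03%) and 17 lower (13.7%), of which 6 of the 17 belonged to the mir-35 family. At single ages 15 hairpins (12.1%) differed between compounds at day 1, 14 (11.3%) at day 5 and 3 (2.42%) at day 20. Of the 7 day 10 calls, 5 also passed this contrast, with mir-70 and mir-86 as the exceptions. Just mir-34, mir-36 and mir-39 had a day 10 difference that differed from that of each of the 3 other ages. All of these contrasts contain the day 10 difference by which the 7 were picked, so passing them is no separate support.

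In the mir-35 family, mir-36 and mir-39 had positive differences at the other ages and negative ones at day 10. For mir-36 the difference was 0.45 at day 1, 0.61 at day 5, -0.64 at day 10 and 0.37 at day 20, and for mir-39 it was 0.49, 0.36, -0.39 and 0.30. Day 10 departed from the mean of the other ages by -1.12 ± 0.18 for mir-36 and by -0.78 ± 0.12 for mir-39 (adjusted p = 2.73e-04 each, edgeR). In levels, mir-39 was 10249 ± 221 and 7283 ± 315 CPM at day 1 (rotenone and 2-deoxyglucose), 10364 ± 1185 and 8054 ± 730.4 CPM at day 5, and 34210.2 ± 2358 and 27723 ± 2184 CPM at day 20. Rotenone means were thus higher at each age but day 10. The difference of mir-39 passed at days 1 and 5 (adjusted p = 0.00325 and 0.029) and that of mir-36 at day 5 (adjusted p = 0.0178). For mir-35, mir-37 and mir-38 the contrast was -0.83 ± 0.21, -0.78 ± 0.23 and -0.93 ± 0.21.

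Other called hairpins took other courses over age. For mir-241 the difference went from -0.57 at day 1 (adjusted p = 0.0136) through -0.09 at day 5 to 0.61 at day 10 and 0.24 at day 20, and the contrast was 0.75 ± 0.19 (adjusted p = 0.00809). For mir-254 it was 0.09, 0.13, -0.51 and -0.06, with a contrast of -0.56 ± 0.16 (adjusted p = 0.0207). The excess of mir-86 in rotenone was 0.49 at day 5 (adjusted p = 0.0109) and 0.48 at day 10, and the contrast did not pass (0.26, adjusted p = 0.163). For mir-70 the differences were 0.01, 0.25, 0.51 and 0.14 (contrast 0.38, adjusted p = 0.0569).

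**Figure D4:**
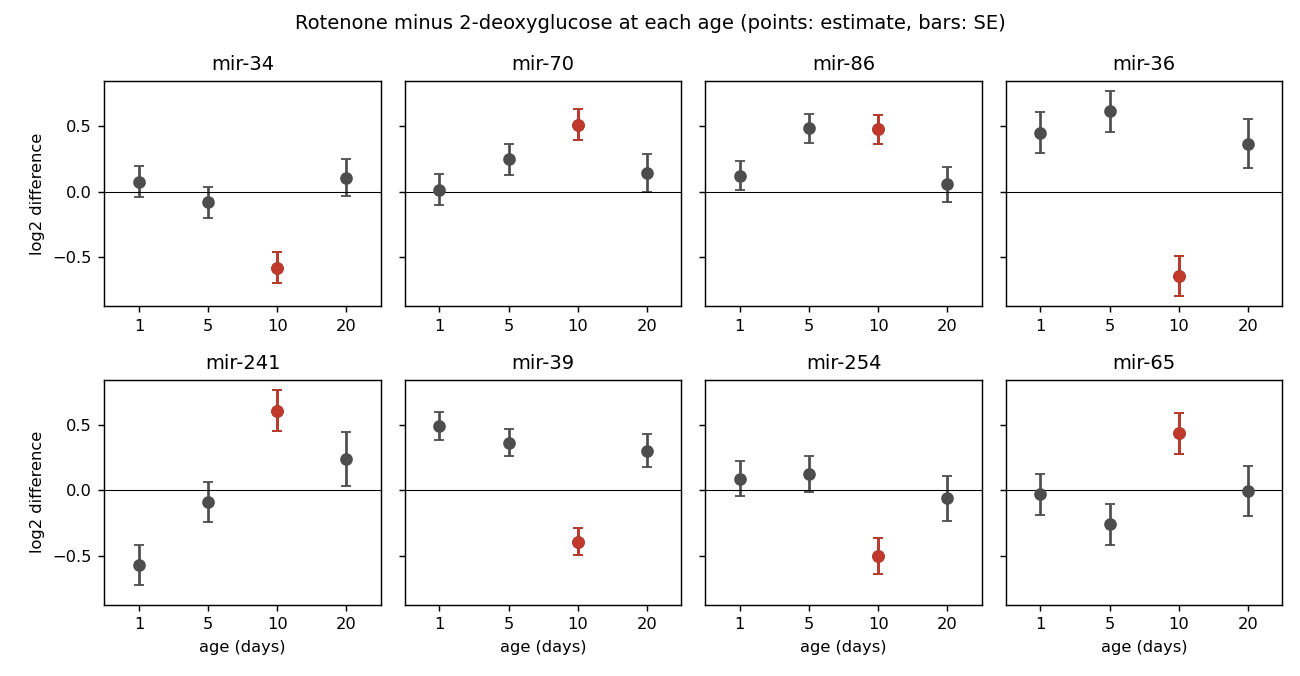
Log2 difference between compounds (y axis, rotenone minus 2-deoxyglucose) at days 1, 5, 10 and 20 (x axis) for the 7 hairpins called at day 10 and for mir-65, which was not called there, with a panel each, red points for day 10 and bars of ±1 SE. Points of mir-36 and mir-39 lie above 0 at days 1, 5 and 20 and below 0 at day 10, while mir-34 lies near 0 except at day 10.

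Between days 5 and 10, which share the day 10 libraries with the comparison above, 41 hairpins (33.1%) changed in rotenone and 52 (41.9%) in 2-deoxyglucose. Of the 7 hairpins, 6 changed in 2-deoxyglucose and 2 in rotenone. In 2-deoxyglucose mir-34 rose by 1.31 and mir-36 by 1.65 on the log2 scale, while mir-70 fell by 0.56 and mir-241 fell by 0.50. In rotenone mir-34 rose by 0.81 and mir-39 by 0.54. Close to the threshold there, mir-36 rose by 0.39 and mir-70 fell by 0.29 (adjusted p = 0.0547 and 0.0599, edgeR). Opposite to 2-deoxyglucose, mir-241 rose by 0.20 and mir-254 fell by 0.25 in rotenone, without passing. The 7 were picked for a gap between the compounds at day 10, which these changes share.

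Several of these hairpins change strongly with age, which can be read from libraries other than those of day 10. Between days 1 and 20, over both compounds, 86 hairpins (69.4%) changed. Among the 7 calls, mir-34, mir-36 and mir-39 rose by 2.75, 2.41 and 1.83, mir-70 fell by 2.27 and mir-241 fell by 2.90. Each of these 5 had, in rotenone at day 10, the level nearer to that of day 1. The other 2 calls, mir-86 and mir-254, had no age change past the threshold (0.19 and -0.24). The calls were picked by their day 10 difference, and uncalled hairpins such as mir-59 and mir-81 went the other way. For mir-59 the means were 1030 and 1015 CPM at day 1 (rotenone and 2-deoxyglucose), 325 and 405 at day 10, and 265 and 268 at day 20. For mir-81 they were 28416 and 27077, 15390 and 19846, and 11253 and 13957 CPM.

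Each library was placed on an axis from the mean day 1 profile (0) to the mean day 20 profile (1), built on log2 CPM without any day 10 library. The rotenone libraries lay at 0.522, 0.544 and 0.543, and those of 2-deoxyglucose at 0.599, 0.563 and 0.574. The 3 rotenone values were the lower ones, with means of 0.537 ± 0.0123 and 0.579 ± 0.0189 (SD, n = 3 each). The difference of -0.0421 is a description and was not tested. It kept its sign without the mir-35 family at -0.0266, and groups did not overlap with any of the 7 other ways to build the axis that were tried. At day 5 the groups overlapped, with 0.267 to 0.316 in rotenone and 0.293 to 0.312 in 2-deoxyglucose. At day 1 the rotenone libraries lay higher (0.00134 to 0.0471 against -0.0303 to -0.0188), and at day 20 lower (0.965 to 0.967 against 1.02 to 1.05). Libraries of those ages helped to set the axis.

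**Figure D5:**
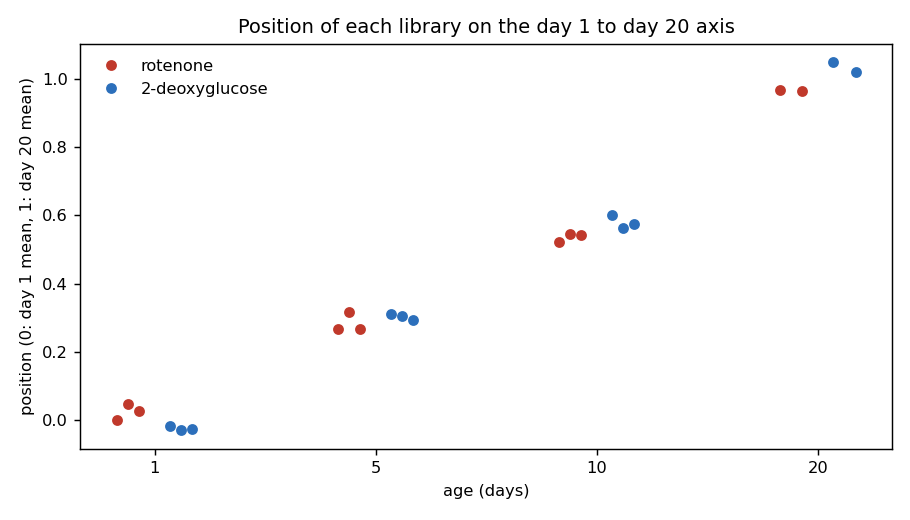
Position of each of the 22 libraries (y axis, 0 at the day 1 mean and 1 at the day 20 mean, no unit) by age in days (x axis), with a point per library. At day 10 the rotenone points lie at 0.522 to 0.544 and the 2-deoxyglucose points at 0.563 to 0.599.

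Across the 124 hairpins, the day 10 difference had a weak negative correlation with the change from day 1 to day 20 (Pearson r = -0.20, Spearman rho = -0.21). Hairpins of a library share its scaling and are not independent, so this is a description. It weakened to r = -0.13 over the 116 hairpins outside the mir-35 family.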

How the data were processed

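Whole N2 hermaphrodites gave total RNA for TruSeq small RNA libraries, per the labels' protocols. SAMtools 1.3.1-9, BWA 0.7.12-r1039, Trimmomatic 0.36 and CASAVA 1.8.4 are listed without roles, per the submitters' processing notes. No source used here states the genome build, strand use or handling of shared reads. The values deposited are raw counts, 1 per hairpin and library, so the arms were not separated. The 6 day 10 libraries held 940056 to 1738413 counts.

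Hairpins with at least 10 counts in at least 3 of the 6 day 10 libraries were kept. All 22 libraries in 8 groups were fitted with edgeR 4.0.16 in R 4.3.3 (TMM scaling, robust quasi-likelihood F test, Benjamini-Hochberg adjustment at 0.05), with limma 3.58.1 and DESeq2 1.42.0 as alternatives. The other 6 groups thus share in the estimate of the spread, and the median biological coefficient of variation was 13.3%. The SE is the log2 difference divided by the square root of F. Ratios between hairpins were tested with SciPy 1.17.1, and figures drawn with matplotlib 3.10.9. The age axis used log2 CPM with a prior count of 2. Locations come from the Ensembl 115 annotation of WBcel235, in which 123 of 124 names matched.

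Hairpins named are all those called, the next by p up to 20 in all, the 10 most abundant, the 5 with the smallest adjusted p against the other ages, a followed set of lifespan, timing and tissue hairpins, and list members. The members and the 19 lists were chosen with earlier results of these data known. Sequences were not used here.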

Additional observations from a re-analysis of the deposited data

Results flagged for a closer look

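The groups of 3 libraries are too small for a test of single outlying libraries. The results below are hairpins whose difference between rotenone and 2-deoxyglucose at day 10 differed from the mean difference at days 1, 5 and 20 in edgeR's quasi-likelihood test (adjusted p below 0.05, 22 of 124). Each value is the log2 difference at day 10 minus that mean.

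Of the 22, 5 were also called at day 10 itself and 17 were not. The contrast contains the day 10 difference by which those 5 were called. In the mir-35 family the values were -1.12 for mir-36, -0.78 for mir-39, -0.93 for mir-38, -0.83 for mir-35, -0.92 for mir-42 and -0.78 for mir-37. For 3 other hairpins called at day 10 they were -0.62 for mir-34, 0.75 for mir-241 and -0.56 for mir-254. In the mir-2 family mir-43 was at -1.11 and mir-250 at -0.75. Of the hairpins with a positive value, mir-80 was at 0.51, mir-84 at 0.60, mir-65 at 0.53 and mir-2208a at 1.91. Below 0 were mir-231 at -0.79, mir-75 at -0.80, mir-59 at -0.41, mir-1829b at -0.40, mir-4813 at -0.87, mir-1832a at -1.82 and mir-8199 at -2.28.

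Differences at another age were large for some of these. At day 1 they were 2.01 for mir-43, 1.99 for mir-42, 4.25 for mir-8199, 2.54 for mir-1832a and 1.27 for mir-4813, while mir-2208a had -3.29 at day 20 and mir-1829b 0.88 at day 5. At day 10 mir-8199 stood at 6.64 to 12.7 CPM and mir-2208a at 16.1 to 44.6 CPM. The minimum count was set on day 10 libraries alone, and some levels at day 1 were near 0. The 2-deoxyglucose libraries of day 1 held 0.864, 0.953 and 2.25 CPM of mir-8199 and 0.864, 0 and 2.25 CPM of mir-1832a. They held 8.64, 10.5 and 7.51 CPM of mir-43. The day 1 differences of mir-8199 and mir-1832a thus rest on very few counts in that group.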

How the results depend on the processing

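No paired analysis was possible because the labels give no replicate numbers. Against 7 calls at day 10, the count was 4 with no filter on low counts, 19 without the day 5 libraries, 13 in a fit of the 6 libraries alone, 17 without the day 20 libraries, 13 with DESeq2 and 23 at an adjusted p of 0.10. Without the day 20 libraries 1 call was higher and 16 lower, and the median of all hairpins was -0.14. With lane as a factor, 8 hairpins passed, 6 higher and 2 lower, of which mir-86 and mir-36 were among the 7. Leaving out a library gave 1 to 7 calls. For the contrast with the other ages, with 22 calls, it gave 11 to 25. The cause was not tested.

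The axis difference was -0.0592 over hairpins of at least 100 CPM, and the correlation with age change was -0.29 over those and -0.13 without the mir-35 family. The mir-50 family's median was 0.28 with total counts. Leaving out a library gave medians of 0.061 to 0.21 for the mir-51 family, -0.13 to 0.072 for the mir-72 family, -0.11 to 0.16 for the mir-238 family, -0.034 to 0.16 for lifespan-linked, 0.053 to 0.21 for stress-linked and -0.011 to 0.10 for tissue-restricted hairpins.

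Signs turned for small differences. With lane as a factor these were mir-40 (0.056), mir-72 (0.19), mir-1 (0.13), mir-237 (-0.10) and mir-239a (-0.0500), and without the day 20 libraries let-7 (-0.0598) and mir-239a (-0.069). For mir-1 the value was 0.052 with total counts, 0.047 with no filter, 0.042 with filterByExpr, 0.042 without day 5, 0.029 without mir-45 and 0.0058 in the 6 libraries alone. For mir-239b these were 0.054, 0.034, 0.037, 0.038, 0.024 and 2.6e-04, and mir-238 was at 0.016 with total counts. Leaving out a library gave -0.10 to 0.083 for mir-1, -0.12 to 0.092 for mir-238, -0.034 to 0.16 for mir-239a and -0.20 to 0.21 for mir-239b.

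The fit without the mir-35 family was chosen after seeing the data. The labels name no molecular identifiers, so depth speaks for counting error only.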
